A study of Mus musculus with 36 samples.

Results

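Germ cells and supporting cells of the XX fetal mouse gonad were compared at the stage labelled TS34, which the labels place after sexual differentiation. The comparison used 6 of the 36 arrays of the series, 3 of germ cells and 3 of supporting cells, chosen by cell type, sex and stage in the sample labels. Supporting cells of the ovary are the somatic cells that surround germ cells and become granulosa cells, and are called pregranulosa cells at fetal stages. The germ cells carried an Oct4 reporter in mice of mixed background that descend from C57BL/6NJ. The XX supporting cells carried the Tg(Sry-EGFP)92Ei transgene, in which the Sry promoter drives the fluorescent protein, in progeny of CD-1 mice. The same 2 lines supplied the XX germ and supporting cells at TS13, labelled as before the onset of sexual differentiation (3 arrays each), and at TS24, labelled as during it. The XY germ cells at TS34 (3 arrays) came from the Oct4 line, whereas the XY supporting cells at TS34 (3 arrays) came from Tg(Sox9-cre/ERT2)1Msan/J mice, progeny of C57BL/6. Gonads of time-mated females were pooled by sex in every group, and cells freed with trypsin were sorted by reporter fluorescence with DAPI marking dead cells. Cell type was therefore tied to the mouse line, and the 2 cannot be told apart in the direct comparison. The labels do not say whether arrays of a group came from separate pools, so the p-values rest on a spread between samples that may be only technical.

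In the fetal ovary, germ cells stop dividing by mitosis and enter the first meiotic prophase before birth, while germ cells of the fetal testis arrest in the mitotic cycle instead. Entry into meiosis needs STRA8, a factor induced by retinoic acid and BMP signals. It is followed by the loading of cohesin and axis proteins on the chromosomes, programmed DNA breaks and synapsis of homologues. Pregranulosa cells surround the germ cells, supply KIT ligand and other signals, and depend on WNT4, RSPO1 and FOXL2 for their ovarian fate.

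Values were deposited as log2 expression, so a difference of 1 is a factor of 2. Every difference below is germ minus supporting unless stated, as log2 ± standard error (SE) from limma with n = 3 arrays a group, and means are given ± SD. A gene was called where limma's Benjamini-Hochberg adjusted p over the 17615 genes tested was under 0.05, and called past 2-fold where limma's test against a difference of 1 gave an adjusted p under 0.05. Over all probe sets, the correlation (Pearson's r) was 0.9713 to 0.9799 among germ arrays and 0.9769 to 0.9818 among supporting arrays, against 0.9125 to 0.9227 between the cell types. Array medians were 6.84, 6.57 and 6.46 on the germ arrays and 6.66, 6.49 and 6.60 on the supporting arrays. The library labelled germ XX TS24 replicate 3 lacks the germ cell markers of its label and was left out of the fit, so means at XX TS24 rest on 2 germ arrays.

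Among the marker genes chosen for the plot of values by array, all but the ovarian gene Foxl2 followed the labels on all 6 arrays. This does not extend to every ovarian gene, since 10 of the 17 pregranulosa genes listed further below were called lower in germ cells. Ddx4, the germ cell RNA helicase, had log2 values of 11.83, 12.09 and 11.99 in germ cells and of 6.75, 5.67 and 5.02 in supporting cells. Stra8 had 10.39, 10.06 and 10.21 against 5.57, 5.24 and 5.11. The groups were far apart for both genes, and supporting replicate 1 held the highest value of its group for each. Their differences were 6.15 ± 0.27 for Ddx4 (limma adjusted p = 1.97e-24) and 4.92 ± 0.22 for Stra8 (limma adjusted p = 1.42e-24).

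Kitl, which encodes the KIT ligand, had log2 values of 6.00, 5.81 and 5.30 in germ cells and of 10.84, 10.94 and 11.17 in supporting cells. Fst, the activin antagonist follistatin and an early ovarian marker, had 7.24, 7.39 and 6.77 against 11.77, 11.94 and 12.16. No array overlapped with the other group for either gene. The differences were -5.28 ± 0.23 for Kitl (limma adjusted p = 1.65e-24) and -4.82 ± 0.21 for Fst (limma adjusted p = 8.3e-25). Pou5f1, the gene behind the Oct4 reporter, was higher in germ cells by 4.48 ± 0.25, and the translational regulator gene Dazl by 5.41 ± 0.27. The somatic transcription factor genes Wt1 and Gata4 were lower in germ cells, at -3.75 ± 0.22 and -2.72 ± 0.21.

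Foxl2, the forkhead factor that defines pregranulosa cells, was not called (-0.30 ± 0.22, limma adjusted p = 0.357). Its log2 values were 6.24, 6.03 and 5.69 in germ cells and 6.57, 6.06 and 6.24 in supporting cells, and the groups overlapped. Its supporting mean of 6.29 lay between the arrays' 25th percentiles (5.21 to 5.38) and medians (6.49 to 6.66). The label of supporting cell thus rests here on Kitl, Fst, Wt1, Gata4 and those ovarian genes below that were called lower, and not on Foxl2. In sorted bulk RNA, fewer cells of a type and less RNA per cell cannot be told apart.

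**Figure D1:**
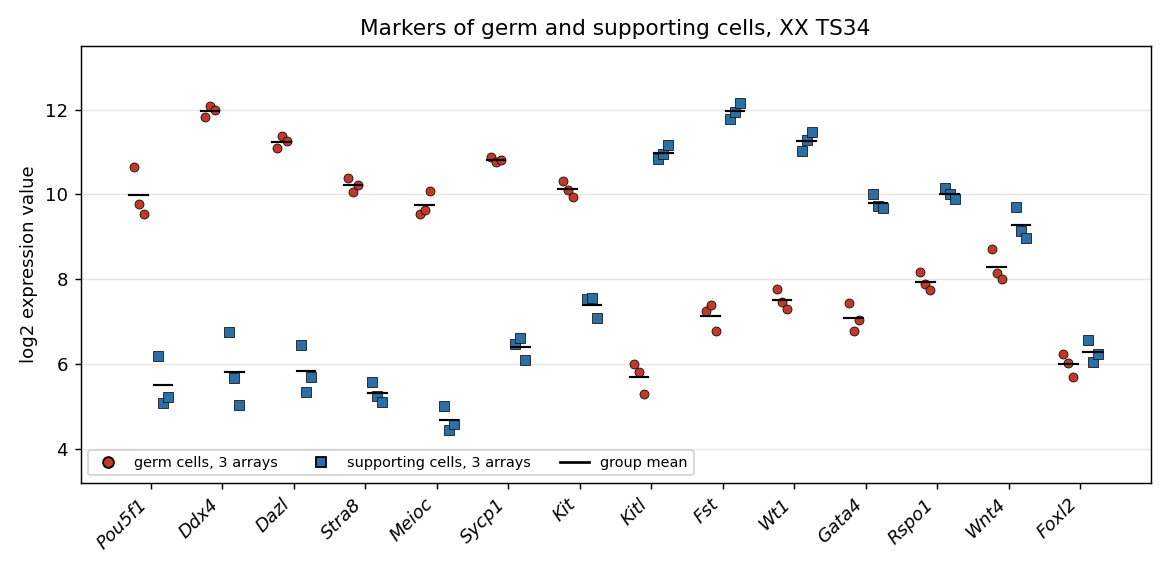
Log2 expression values (vertical axis) of 14 marker genes on the 3 germ (circles) and 3 supporting arrays (squares) at XX TS34, with a bar at each group mean. The 7 genes from Pou5f1 to Kit are higher on all 3 germ arrays and the 6 from Kitl to Wnt4 on all 3 supporting arrays, while Foxl2 overlaps between 5.69 and 6.57.

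Across the genome 30.1% of genes were called, of which 3018 were higher in germ cells (17.1% of those tested) and 2277 lower (12.9%). After quantile normalization the counts were 2891 and 2952, and 2805 of the 3018 and 2276 of the 2277 were called again in the same direction. No gene called as deposited was called in the opposite direction after it. Past 2-fold, 604 genes were higher (3.43%) and 549 lower (3.12%), of which 576 and 549 were also past 2-fold after quantile normalization. The 3 germ arrays lay above all 3 supporting arrays for 24.6% of genes and below them for 15.4%. The median difference of all genes was 0.04, and -0.02 after quantile normalization.

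Of 20 genes of germ cell identity and pluripotency, 19 were called higher in germ cells and none lower, and 12 were past 2-fold. Their median difference was 2.68, against 0.04 for all genes, of which 17.1% were called higher and 3.43% past 2-fold higher. Dppa5a, an RNA-binding protein of pluripotent cells, was higher by 5.25 ± 0.36, Dppa3, which protects maternal methylation, by 4.04 ± 0.25 and Sox2, a pluripotency factor, by 3.38 ± 0.21. The exception was Nanos3, an RNA-binding protein that keeps early germ cells alive, with log2 values of 7.86, 7.64 and 7.44 in germ cells and 8.01, 7.26 and 7.50 in supporting cells. These overlapped fully, and Nanos3 was not called (0.06 ± 0.22, limma adjusted p = 0.904). Ifitm3, a transmembrane protein of early germ cells, was called with a small difference (1.06 ± 0.25), since supporting cells also read high, at 10.82 ± 0.24.

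Part of this programme stood closer between the cell types at TS34 than at TS13. The stage difference, the TS34 difference minus the TS13 difference, was tested as an interaction. Both stages used the same mouse lines, so a constant difference between the lines cancels in it. It was called for 10.1% of all genes, positive for 670 (3.8%) and negative for 1108 (6.29%), and these counts moved with processing. After quantile normalization 1009 were positive, and without germ XX TS34 replicate 3 the negative count was 701. Of the 20 identity genes 9 had a negative stage difference and none a positive one, and 4 were negative with all 36 arrays in the fit. For Nanog, a pluripotency factor, the germ mean was 9.92 ± 0.06 at TS13 and 7.67 ± 0.53 at TS34, with a stage difference of -1.88 ± 0.34 (limma adjusted p = 7.65e-05). Nanos3 had a germ mean of 9.52 ± 0.19 at TS13 and 7.65 ± 0.21 at TS34 (stage difference -1.99 ± 0.31). Pou5f1 had a stage difference of -1.52 ± 0.36, which was not called with all 36 arrays (limma adjusted p = 0.476). Ddx4 and Dazl were not called (0.40 ± 0.39 and -0.05 ± 0.38).

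Genes of meiotic entry were higher in germ cells. Of 7 measured, 6 were called higher, none lower, and 4 were past 2-fold, with a median difference of 2.53. The shares of all genes were 17.1% called higher and 3.43% past 2-fold higher. Meioc, which with the RNA helicase YTHDC2 and the RNA-binding protein RBM46 clears mitotic transcripts, had log2 values of 9.53, 9.64 and 10.09 in germ cells and of 5.001, 4.45 and 4.59 in supporting cells. Its difference was 5.07 ± 0.29, and its partners Rbm46 and Ythdc2 were higher by 3.97 ± 0.26 and 2.53 ± 0.32. Zglp1, a regulator that acts downstream of BMP in oogenic fate, was higher by 1.00 ± 0.20. Msx1, a homeobox gene, was not called (-0.06 ± 0.20).

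Stra8 and Meioc had a low germ mean at TS13, close to that of supporting cells. The Stra8 means were 5.16 ± 0.22 in germ and 5.09 ± 0.07 in supporting cells at TS13, and the 2 germ arrays at TS24 averaged 7.47 ± 0.83. At TS34 the germ mean was 10.22 ± 0.17. The stage difference was 4.85 ± 0.31 for Stra8 (limma adjusted p = 1.24e-16) and 4.72 ± 0.42 for Meioc. The sex difference, the XX difference minus the XY difference at TS34, was 4.42 ± 0.31 for Stra8 and 4.41 ± 0.42 for Meioc, since XY germ cells had means of 5.57 ± 0.39 and 5.20 ± 0.30. Of all genes 12.7% had a called sex difference, positive for 1220 (6.93%) and negative for 1023 (5.81%). These counts moved with processing, to 1658 and 1168 after quantile normalization. In the sex difference, sex and the mouse line of the supporting cells cannot be told apart.

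Chromosome axis and synapsis genes had a median difference of 4.42. Of 17 tested, 16 were called higher, none lower, and 13 past 2-fold, against 17.1% of all genes called higher and 3.43% past 2-fold higher. Sycp1, the transverse filament of the synaptonemal complex, had log2 values of 10.89, 10.76 and 10.81 in germ cells and 6.46, 6.61 and 6.10 in supporting cells. The germ arrays lay close together and far above the supporting arrays (4.42 ± 0.25). Hormad1, an axis protein that monitors synapsis, was higher by 5.89 ± 0.25, the meiotic cohesin gene Smc1b by 5.41 ± 0.26, and the axis genes Sycp2 and Sycp3 by 5.05 ± 0.24 and 4.66 ± 0.27. The meiotic cohesin gene Rec8 had a small difference (1.47 ± 0.23), and Sun1, a nuclear envelope protein with somatic roles, was not called (0.40 ± 0.23).

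The stage difference was positive for 11 of these 17 genes (7 with all 36 arrays), against 3.8% of all genes, and negative for none. Sycp2 and Sycp1 led them, at 3.84 ± 0.34 and 3.77 ± 0.35, with Tex12, a central element protein, at 3.81 ± 0.59. Hormad1 was already 4.77 higher in germ cells at TS13, and its stage difference of 1.12 ± 0.36 was called (limma adjusted p = 0.0333) but not with all 36 arrays, with the lowest probe set, or without any 1 of 9 of the 12 arrays. The sex difference was positive for 6 of the 17, against 6.93% of all genes, and negative for none. It was positive for 3 when all 36 arrays were used or germ XY TS34 replicate 1 was left out. Sycp1 and Sycp2 were not among the 6 (-0.14 ± 0.35 and -0.03 ± 0.34). Their XY germ means at TS34 were 9.81 ± 0.30 and 9.67 ± 0.25. The XX germ mean of Sycp1 was 10.82 ± 0.06, and its supporting means were 6.39 ± 0.26 in XX and 5.24 ± 0.32 in XY. The Sycp1 means were thus higher in XX in both cell types.

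Of 22 recombination genes tested, 21 were called higher in germ cells, none lower, and 15 past 2-fold, with a median of 3.14. The matching shares of all genes were 17.1% called higher and 3.43% past 2-fold higher. Dmc1, the meiosis-specific recombinase, had log2 values of 10.94, 10.57 and 11.18 in germ cells against 6.43, 6.74 and 6.55. The difference was 4.33 ± 0.29, and that of Meiob, a single-strand DNA binding protein, 4.64 ± 0.27. M1ap, needed for meiosis I, was higher by 4.46 ± 0.21, the crossover helicase gene Hfm1 by 4.09 ± 0.25, Spo11, which makes the DNA breaks, by 3.16 ± 0.23 and Prdm9, which marks the sites of breaks, by 2.83 ± 0.25. The mismatch repair gene Mlh3 was not called (-0.05 ± 0.23). The stage difference was positive for 18 of the 22 genes, against 3.8% of all genes. Examples were Meiob (3.72 ± 0.39), Dmc1 (2.98 ± 0.41) and Prdm9 (2.91 ± 0.35). The sex difference was positive for 12 of the 22 and negative for 1, Tex15, against 6.93% and 5.81% of all genes. The negative count was 0 with all 36 arrays and without germ XX TS34 replicate 2, supporting XX TS34 replicate 2 or germ XY TS34 replicate 3. Dmc1 had a sex difference of 3.27 ± 0.41.

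**Figure D2:**
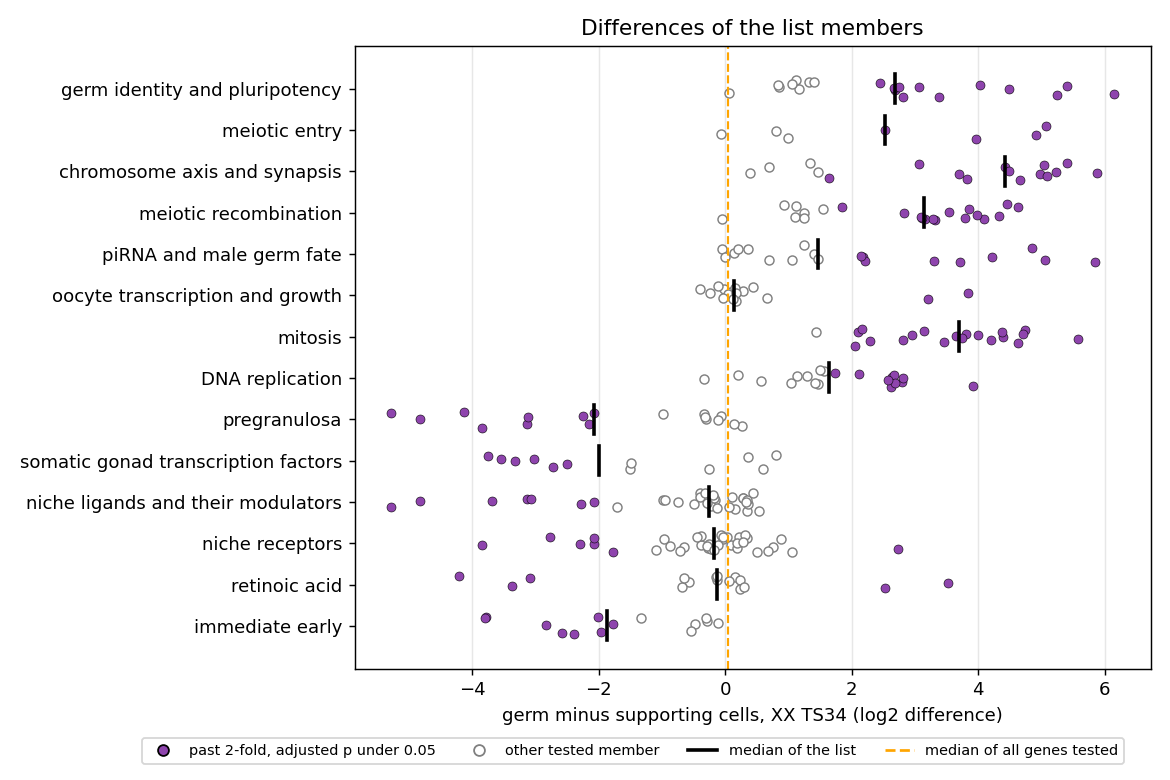
Log2 difference between germ and supporting cells at XX TS34 (horizontal axis) for the tested members of 14 gene lists (rows); filled points passed the test past 2-fold, bars mark list medians and the dashed line the median of all genes, 0.04. The medians run from 4.42 for axis and synapsis genes to -2.08 for pregranulosa genes.

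Promoter sequence was examined because members of the meiotic lists were high together. The 9 genes shown were picked by hand and include Stk31, Ddx4 and Kitl from outside those lists. Their motif counts do not stand for the shares below. RefSeq promoters (GRCm38.p6) were matched by symbol for 13857 of the 17615 genes, taking the first listed start where there were several, and the 250 bases before the start were searched on both strands. The letters CACGTG, an E-box, were present in 7.63% of all promoters, in 9.76% of those of genes past 2-fold higher in germ cells and in 6.16% of those past 2-fold lower. They were present in 6 of 15 axis and synapsis promoters (40.0%), in 5 of 16 promoters of the list of piRNA and male germ fate (31.2%) and in 2 of 11 pregranulosa promoters (18.2%), but in 1 of 17 recombination promoters (5.88%) and 1 of 12 germ identity promoters (8.33%). They were also in 4 of 14 among the 15 genes with the largest germ excess. The letters TCCCGC, the core of an E2F-type site, were present in 25.7% of all promoters, in 39.2% of germ-high and in 25.6% of supporting-high promoters. They were in 8 of 15 axis and synapsis promoters, 8 of 17 mitosis promoters, 10 of 17 replication promoters, 8 of 17 recombination promoters and 5 of 11 pregranulosa promoters, but in 2 of 16 piRNA and male germ fate promoters (12.5%) and 1 of 12 germ identity promoters (8.33%). The mean number of CG dinucleotides per promoter was 14.1 in all, 17.7 in germ-high and 13.8 in supporting-high promoters, and its part in these shares was not tested. A match describes letters only, and the lists were chosen with results known. GATAAG was in 5.18% of all promoters, 5.38% of germ-high and 5.69% of supporting-high ones, and AAGGTCA in 3.2%, 1.99% and 2.61%. The 100 bases before the annotated start follow 5′ to 3′ on the gene's strand, with CACGTG, or TCCCGC read on either strand, in capitals.
Stk31 (chr6:49395439-49395538, plus strand): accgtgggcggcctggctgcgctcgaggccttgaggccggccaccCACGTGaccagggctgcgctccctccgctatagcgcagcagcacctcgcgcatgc
Ddx4 (chr13:112652311-112652410, minus strand): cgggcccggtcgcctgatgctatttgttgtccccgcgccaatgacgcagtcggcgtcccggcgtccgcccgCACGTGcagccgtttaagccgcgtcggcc
Hormad1 (chr3:95559577-95559676, plus strand): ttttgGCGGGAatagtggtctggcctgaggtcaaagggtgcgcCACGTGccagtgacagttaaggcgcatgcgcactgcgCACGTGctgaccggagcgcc
Sycp3 (chr10:88459487-88459586, plus strand): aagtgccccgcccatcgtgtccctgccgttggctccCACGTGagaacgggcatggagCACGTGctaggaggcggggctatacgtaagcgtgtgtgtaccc
Sycp1 (chr3:102936101-102936200, minus strand): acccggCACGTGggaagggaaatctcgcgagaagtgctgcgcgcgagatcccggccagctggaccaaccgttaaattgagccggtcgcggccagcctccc
Tex12 (chr9:50561269-50561368, minus strand): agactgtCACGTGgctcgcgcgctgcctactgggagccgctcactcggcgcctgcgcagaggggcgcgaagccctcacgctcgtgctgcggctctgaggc
Smc1b (chr15:85131958-85132057, minus strand): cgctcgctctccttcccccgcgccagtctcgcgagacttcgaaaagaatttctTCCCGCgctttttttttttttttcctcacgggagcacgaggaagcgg
Stra8 (chr6:34920848-34920947, plus strand): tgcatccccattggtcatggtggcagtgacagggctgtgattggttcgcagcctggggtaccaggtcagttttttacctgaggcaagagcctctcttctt
Kitl (chr10:100015721-100015820, plus strand): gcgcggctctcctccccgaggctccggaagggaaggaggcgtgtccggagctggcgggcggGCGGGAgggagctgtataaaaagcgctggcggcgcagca
Stk31, Ddx4, Sycp1 and Tex12 hold 1 CACGTG in these 100 bases, Hormad1 and Sycp3 hold 2, and Smc1b holds TCCCGC alone. Stra8, shown as an entry gene, holds neither, and Kitl, shown as the supporting-high counterpart, holds TCCCGC on the opposite strand.

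Of 16 genes of oocyte growth, 3 were called higher, none lower, and 2 past 2-fold, with a median of 0.14. This share is near the 17.1% of all genes called higher. Sohlh2, a transcription factor of early oocytes, had log2 values of 9.86, 9.45 and 9.31 in germ cells against 5.93, 5.58 and 5.56 (3.85 ± 0.20). Figla, a later oocyte factor, had 6.72, 5.77 and 6.07 against 5.97, 5.58 and 5.70 and was not called (0.44 ± 0.21), though it was called without germ replicate 2. Nobox (0.18 ± 0.21), Lhx8 (0.09 ± 0.22), the growth factor genes Gdf9 (-0.39 ± 0.21) and Bmp15 (-0.24 ± 0.19) and the zona pellucida gene Zp3 (0.05 ± 0.23) were not called either. The other 2 called genes were the transcription cofactor gene Taf4b (3.21 ± 0.21) and Ooep (0.66 ± 0.24), of the egg's subcortical complex. Gdf9 was called lower without supporting replicate 2.

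Among 19 genes of piRNA function and male germ fate, 14 were called higher in XX germ cells, none lower, and 9 past 2-fold. Their median was 1.48. The matching shares of all genes were 17.1% called higher and 3.43% past 2-fold higher. The piRNA pathway genes Mael, Asz1 and Mov10l1 were higher by 5.85 ± 0.22, 5.05 ± 0.22 and 4.86 ± 0.22. Nanos2, the regulator of male germ fate, had log2 values of 5.85, 6.18 and 5.85 in XX germ cells and 5.70, 5.87 and 5.72 in supporting cells, and was not called (0.20 ± 0.23). Its XY germ mean at TS34 was 9.86 ± 0.30, and its sex difference was -3.84 ± 0.32 (limma adjusted p = 2.81e-13). The sex difference was negative for 6 of the 19 genes, against 5.81% of all genes, and positive for none. The stage difference was positive for 7 and negative for 1, Morc1, against 3.8% and 6.29% of all genes. With all 36 arrays it was positive for 2. The piRNA-binding gene Piwil4 was higher in XX germ cells by only 0.70 ± 0.20, and Piwil1 was not called (-0.05 ± 0.20).

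Of 7 DNA methylation genes, 3 passed as higher in germ cells and 3 as lower, against 17.1% and 12.9% of all genes. The maintenance methyltransferase gene Dnmt1 was higher by 2.01 ± 0.22, its partner Uhrf1 by 1.203 ± 0.22, and Tet1, which oxidises methylcytosine, by 1.61 ± 0.24. The de novo methyltransferase gene Dnmt3a was lower, at -1.76 ± 0.19, as were Dnmt3b (-0.64 ± 0.20) and Tet3 (-0.95 ± 0.21). By limma Dnmt3b was not called without germ replicate 3 (adjusted p = 0.0691) or supporting replicate 1 (adjusted p = 0.0616), nor Tet3 with its dimmest probe set (adjusted p = 0.0659).

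Of 17 pregranulosa genes, 10 were called lower in germ cells, none higher, and 9 past 2-fold, with a median of -2.08. The shares of all genes were 12.9% called lower and 3.12% past 2-fold lower. Cdkn1b, the CDK inhibitor p27, had log2 values of 8.03, 8.09 and 7.55 in germ cells and of 12.22, 11.66 and 12.18 in supporting cells. The groups were separate, and the difference was -4.13 ± 0.33 (limma adjusted p = 5.78e-15). Rspo1, which potentiates WNT signals, was at 8.18, 7.88 and 7.75 against 10.16, 10.01 and 9.88 (-2.08 ± 0.23), and Wnt4 at 8.71, 8.14 and 8.01 against 9.71, 9.15 and 8.98 (-0.99 ± 0.22). Runx1, a transcription factor of fetal pregranulosa cells, was lower at -3.12 ± 0.22 and the homeobox gene Irx3 at -2.15 ± 0.22. The WNT-responsive genes Lef1 and Axin2 were not called as deposited (-0.34 ± 0.21 and -0.32 ± 0.20), and Axin2 was called after quantile normalization (-0.47, limma adjusted p = 0.0344).

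The sex difference was negative for 11 of these 17 genes, and positive for 1, the estrogen-producing enzyme gene Hsd17b1. Over all genes it was negative for 5.81% and positive for 6.93%. For Fst it was -5.17 ± 0.29, since XY supporting cells had a mean of 6.65 ± 0.13. For Gng13, a G protein subunit gene, it was -4.63 ± 0.36, for Cdkn1b -3.98 ± 0.47 and for Rspo1 -2.66 ± 0.32. Kitl had a sex difference of -1.199 ± 0.33 that was not called with all 36 arrays (limma adjusted p = 0.516). Stage differences were called negative for 2 of the 17, Lgr5 and Gng13, against 6.29% of all genes. Those of Kitl and Fst were not called (-0.10 ± 0.33 and -0.11 ± 0.29).

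Of 12 somatic gonad transcription factors, 8 were called lower in germ cells and 2 higher, against 12.9% and 17.1% of all genes. Besides Wt1, the LIM factor gene Lhx9 was lower at -3.55 ± 0.26, Emx2 at -3.32 ± 0.22, Gata6 at -3.02 ± 0.22, the nuclear receptor gene Nr0b1 at -2.49 ± 0.30 and Nr5a1, which encodes SF1, at -1.49 ± 0.22. The 2 higher genes were Six4 (0.80 ± 0.25) and the Polycomb gene Cbx2 (0.61 ± 0.21). Each was not called without germ replicate 1 or without supporting replicate 2, and Six4 also not without germ replicate 2. Lhx9 and Emx2 had negative sex differences (-3.71 ± 0.37 and -2.72 ± 0.31), with XY supporting means of 6.45 ± 0.10 and 5.86 ± 0.17.

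Signals between the cell types were read from 32 ligands and modulators and 37 receptors. Of the 32 ligands, 11 were called lower in germ cells, none higher, and 7 past 2-fold, with a median of -0.26. Kit, the receptor for KIT ligand, had log2 values of 10.31, 10.11 and 9.93 in germ cells and of 7.53, 7.56 and 7.07 in supporting cells. Ligand and receptor thus lay on opposite sides, with Kit higher in germ cells by 2.73 ± 0.22 (limma adjusted p = 2.62e-15) and Kitl lower. Kit was the single receptor of the 37 past 2-fold higher in germ cells, where 4 were called higher, 10 lower and 6 past 2-fold lower. Over all genes 17.1% were called higher, 12.9% lower, 3.43% past 2-fold higher and 3.12% past 2-fold lower. A single receptor past 2-fold higher is thus near the share of all genes.

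Bmp2, a BMP ligand of the fetal ovary, had log2 values of 6.75, 6.63 and 6.22 in germ cells against 9.84, 9.39 and 9.77 in supporting cells (-3.13 ± 0.20). Its type I receptor gene Bmpr1a had 9.70, 9.15 and 9.55 against 9.10, 9.45 and 9.55, which overlapped, and was not called (0.10 ± 0.22). The type II receptor gene Bmpr2 was lower in germ cells (-1.09 ± 0.21). The BMP ligand was therefore high on 1 side, while receptor RNA was read in both. Bmp2 had a sex difference of -3.21 ± 0.29, and its XY supporting mean was 6.03 ± 0.19.

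The R-spondin receptor genes lay with their ligand on the supporting side. Lgr5 had log2 values of 6.45, 5.82 and 5.75 in germ cells against 9.88, 9.69 and 9.99 in supporting cells. Its difference was -3.85 ± 0.22, and that of its relative Lgr4 was -2.07 ± 0.22. Supporting cells had an Lgr5 mean of 7.87 ± 0.11 at TS13, of 9.38 ± 0.18 at TS24 and of 9.85 ± 0.15 at TS34, and its stage difference was -2.04 ± 0.31 (limma adjusted p = 4.3e-06). Fgfr2, the FGF receptor that carries FGF9 signals in Sertoli cells, was also lower in germ cells (-2.77 ± 0.23). Fgfr1, by contrast, was higher in germ cells by 0.88 ± 0.21, as was the WNT receptor gene Fzd7 by 1.06 ± 0.21.

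Among growth factors, Igf2 was at 8.40, 8.36 and 7.97 in germ cells against 11.40, 11.23 and 11.30 in supporting cells (-3.07 ± 0.24), and Igf1 was lower at -2.27 ± 0.21. Their receptor gene Igf1r was at 8.56, 7.79 and 8.09 against 8.12, 8.02 and 8.20, overlapped, and was not called (0.04 ± 0.20). Gas6, the ligand of the TAM receptor kinases, was lower in germ cells (-3.68 ± 0.23), together with the TAM receptor genes Axl (-2.07 ± 0.21) and Mertk (-2.30 ± 0.23), and the third TAM gene, Tyro3, was not called (-0.03 ± 0.20). Il6st, the gp130 subunit of cytokine receptors, was also lower (-1.78 ± 0.23).

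**Figure D3:**
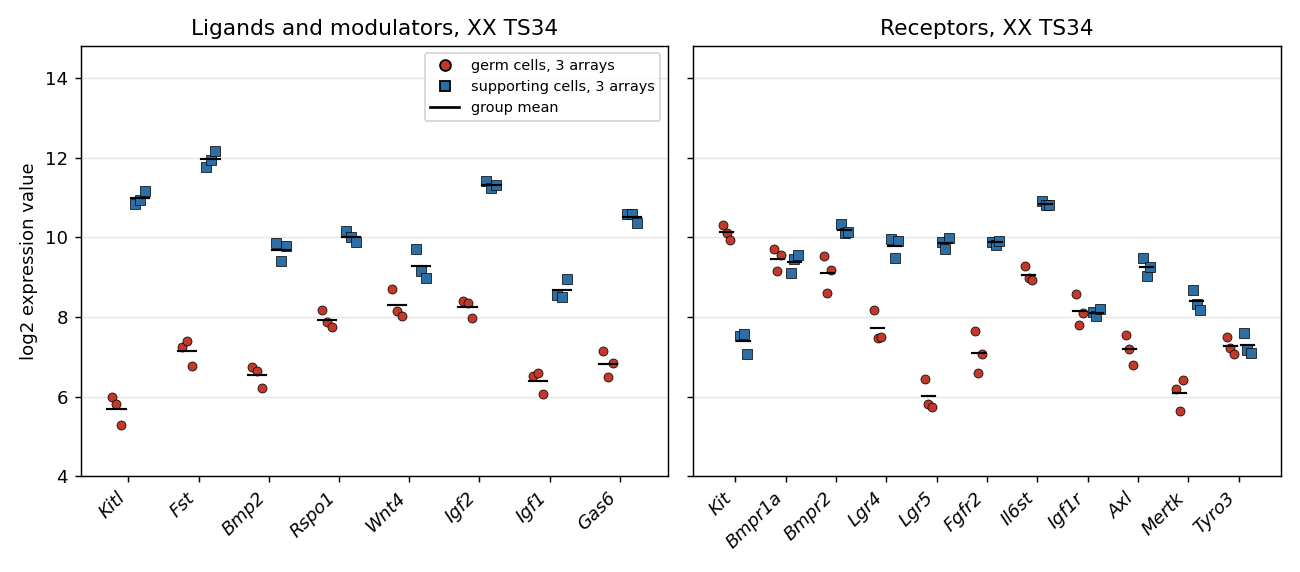
Log2 expression values (vertical axis) of 8 ligand or modulator genes (left) and 11 receptor genes (right) on the 3 germ (circles) and 3 supporting arrays (squares) at XX TS34, with bars at the means. All 8 ligands are lower on every germ array, Kit is higher on every germ array, and Bmpr1a, Igf1r and Tyro3 overlap.

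Of 16 retinoic acid genes tested, 2 passed as higher in germ cells and 6 as lower, against 17.1% and 12.9% of all genes. Aldh1a1, which makes retinoic acid, had log2 values of 6.06, 6.66 and 6.01 in germ cells and of 10.54, 10.41 and 10.39 in supporting cells. Its difference was -4.20 ± 0.23 (limma adjusted p = 2.17e-21), that of the related enzyme gene Aldh1a2 -3.08 ± 0.22, and that of Dhrs3, which reduces retinal back to retinol, -3.36 ± 0.26. The 2 genes higher in germ cells encode the cellular retinoic acid binding proteins. Crabp1 was at 11.38, 11.88 and 11.51 against 8.03, 8.33 and 7.82 (3.53 ± 0.27), and Crabp2 at 10.34, 10.80 and 10.16 against 8.36, 7.17 and 8.21 (2.52 ± 0.27). The degrading enzyme gene Cyp26b1 and the receptor genes Rara and Rarg were not called (-0.13 ± 0.22, -0.14 ± 0.21 and 0.30 ± 0.21).

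The 2 synthesis genes had a lower supporting mean at TS13, at 7.50 ± 0.06 for Aldh1a1 and 8.31 ± 0.21 for Aldh1a2. At TS34 these means were 10.45 ± 0.08 and 10.08 ± 0.18. Their stage differences were -2.61 ± 0.32 and -2.35 ± 0.31, and that of Crabp2 was 2.25 ± 0.38. In XY supporting cells at TS34, Aldh1a1 was at 11.46 ± 0.19 and Aldh1a2 at 8.39 ± 0.21. The sex difference was called for Aldh1a2 (-2.46 ± 0.31) and Dhrs3 (-3.22 ± 0.36). For Aldh1a1 it was not (-0.76 ± 0.32, limma adjusted p = 0.122), except without germ XX replicate 2 or germ XY replicate 1.

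All 20 mitosis genes tested were called higher in germ cells, 19 of them past 2-fold, with a median of 3.70. Among all genes 17.1% were called higher and 3.43% past 2-fold higher. Mki67, a protein of cycling cells, had log2 values of 10.23, 10.28 and 10.07 in germ cells and of 6.09, 6.39 and 6.11 in supporting cells. The spindle checkpoint kinase gene Bub1 was at 12.13, 12.02 and 11.92 against 6.88, 6.67 and 5.78. Both genes were separated by wide margins and past 2-fold, and the difference was 5.58 ± 0.24 for Bub1. Of 20 DNA replication genes 18 were called higher, none lower, and 10 past 2-fold, such as the primase gene Prim1 (3.92 ± 0.29) and the ribonucleotide reductase gene Rrm2 (2.68 ± 0.24). Top2a was higher by 4.63 ± 0.25 with its brightest probe set, but not with its dimmest (0.27, limma adjusted p = 0.545).

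The sex difference was positive for all 20 mitosis genes and for 13 of 20 replication genes, and negative for none. Over all genes it was positive for 6.93%. With its dimmest probe set Top2a turned to -0.117 (limma adjusted p = 0.931). For Mki67 it was 3.55 ± 0.33, and the means show on which side it lay. XX and XY germ cells had 10.20 ± 0.11 and 9.88 ± 0.24, whereas supporting cells had 6.20 ± 0.17 in XX and 9.43 ± 0.13 in XY. The sex difference of Bub1 was 3.35 ± 0.34. The stage difference was positive for 3 of the 20 mitosis genes and for no replication gene, and for 5 and 2 after quantile normalization. Over all genes it was positive for 3.8% as deposited. At TS13 the XX supporting mean of Mki67 was already 7.17 ± 0.14.

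Regulators of the G1 phase split, with 5 of 12 called higher and 5 lower in germ cells, against 17.1% and 12.9% of all genes. The E-type cyclin genes Ccne1 and Ccne2 were higher by 2.58 ± 0.24 and 2.68 ± 0.28 and the retinoblastoma gene Rb1 by 2.32 ± 0.21. Lower in germ cells were, besides Cdkn1b, the cyclin gene Ccnd2 (-2.57 ± 0.22), the CDK inhibitor gene Cdkn1c (-1.88 ± 0.22) and the kinase genes Cdk6 (-1.59 ± 0.30) and Cdk4 (-1.33 ± 0.22). Ccnd1 was higher by 1.32 ± 0.25. Cdk6 had a stage difference of -2.14 ± 0.42.

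**Figure D4:**
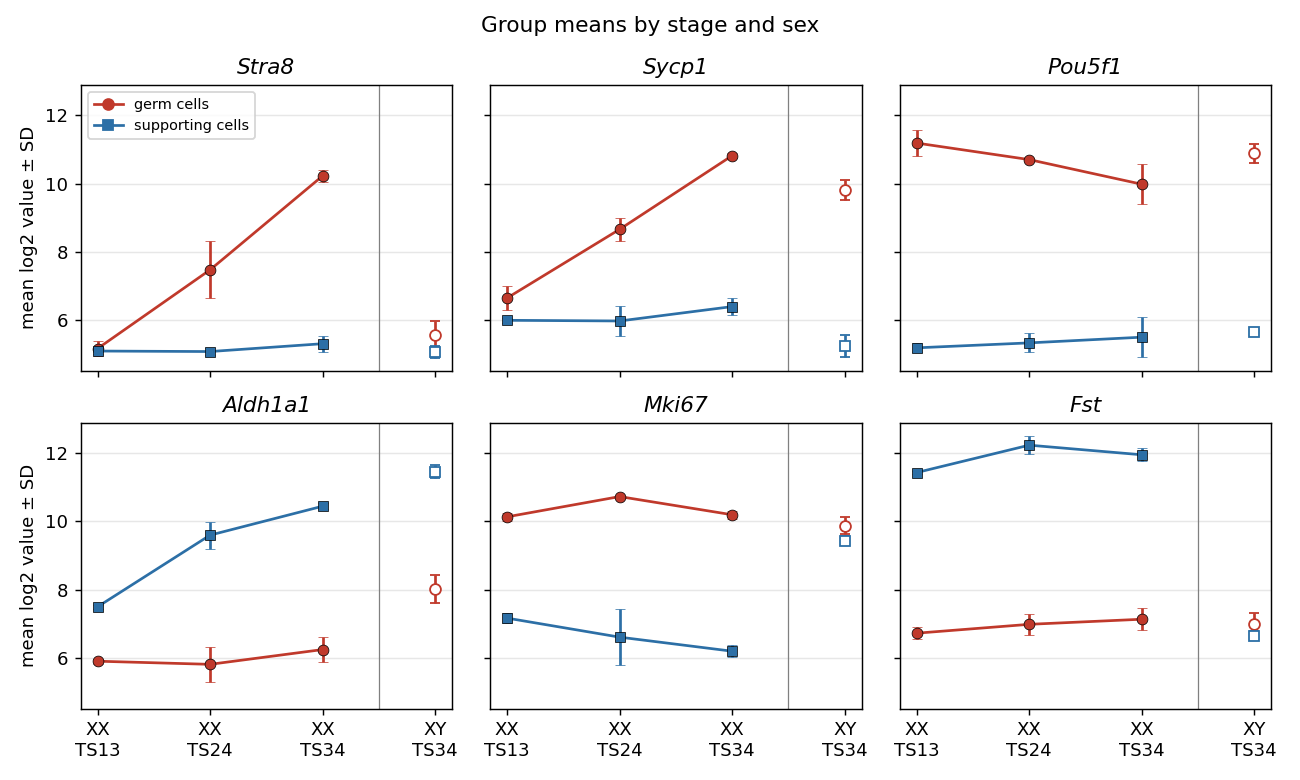
Mean log2 value ± SD (vertical axis) of 6 genes in germ (circles) and supporting cells (squares) at XX TS13, TS24 and TS34 (filled) and at XY TS34 (open), with 3 arrays a group except 2 for germ cells at XX TS24. Stra8 and Sycp1 have low germ means at TS13, Aldh1a1 differs over stages in supporting cells, and Mki67 and Fst differ between XX and XY supporting cells, which came from different mouse lines.

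Cell contact genes were split in direction, where over all genes 17.1% were called higher and 12.9% lower. Of 15 adhesion and junction genes, 3 passed as higher in germ cells, near the share of all genes, and 6 as lower. Gja1, the gap junction protein connexin 43, was lower at -4.57 ± 0.27 and the integrin gene Itga6 at -3.21 ± 0.23, while the epithelial adhesion genes Epcam (2.31 ± 0.22) and Cdh1 (1.38 ± 0.19) and the claudin gene Cldn6 (1.82 ± 0.25) were higher. Of 20 matrix genes 2 were called higher, under the share of all genes, and 6 lower. The 2 were the fibronectin gene Fn1, at 9.95, 9.72 and 9.50 in germ cells against 6.36, 6.97 and 6.41 (3.14 ± 0.22), and the nidogen gene Nid2 (2.68 ± 0.20). Its relative Nid1 was lower in germ cells, at -2.29 ± 0.25.

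The metabolic lists had mixed directions. Of 17 glycolysis and lactate genes, 2 were called higher and 9 lower, and 5 lower without germ replicate 3. Over all genes 17.1% were called higher and 12.9% lower. The glucose transporter gene Slc2a3 was higher by 1.83 ± 0.24, and the enzyme gene Tpi1 was lower at -1.74 ± 0.23. Of 12 cholesterol synthesis genes 7 were called higher and 1 lower, with Idi1 at 1.99 ± 0.26 (stage difference 2.95 ± 0.36), Fdps at 1.51 ± 0.21 and Nsdhl at 1.496 ± 0.26. The 1 lower gene, Hmgcs1 (-0.70 ± 0.24), lost its call without any of 4 arrays. The MHC class I light chain gene B2m was lower in germ cells (-2.48 ± 0.27), with a germ mean of 6.22 ± 0.39 at TS13 and 8.73 ± 0.12 at TS34 (stage difference 2.67 ± 0.39). Of the 10 genes of class I presentation tested, 3 were called lower and none higher.

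Immediate early genes, which cell handling can induce, were higher in supporting cells. Of 14, 9 were called lower in germ cells, none higher, and 8 past 2-fold, with a median of -1.87. Among all genes 12.9% were called lower and 3.12% past 2-fold lower. Fosb had log2 values of 7.12, 7.45 and 7.18 in germ cells and of 10.49, 10.87 and 11.74 in supporting cells (-3.78 ± 0.25), and Jun was at -3.80 ± 0.32. The 14 genes averaged 7.35, 7.38 and 6.94 on the germ arrays and 8.79, 8.84 and 9.21 on the supporting arrays. The stage difference was negative for 7 of the 14, such as Egr2 (-3.13 ± 0.49), against 6.29% of all genes. With all 36 arrays it was negative for 4. The part of sample handling in these values was not tested.

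Among markers of other cell types, 4 of 14 Sertoli and 2 of 11 stromal genes had a supporting mean over 8, as did 1 of 7 erythroid genes. In germ cells 2 Sertoli and 2 stromal genes had a mean over 8. The median of these means over all genes was 7.08 in supporting and 7.07 in germ cells. The share of all genes over 8 was not counted. By limma none of 9 endothelial, 10 macrophage, 6 mesonephric or 4 Y-linked genes was called as deposited, with mean list levels of 5.96 to 6.25, 5.88 to 6.11, 6.34 to 6.70 and 4.59 to 5.06 on the germ arrays and of 6.02 to 6.20, 5.79 to 5.97, 6.32 to 6.53 and 4.74 to 4.95 on the supporting arrays. After quantile normalization 3 endothelial genes and 1 mesonephric gene were called. Of 4 steroidogenic genes 1 was called lower, Hsd3b1, but not without germ replicate 3 or supporting replicate 1. The steroidogenic list averaged 5.44 to 5.74 on the germ arrays and 5.66 to 5.74 on the supporting arrays. Its sex difference was positive for 3 of the 4, against 6.93% of all genes. Of 11 stromal genes 2 were called lower, Col3a1 and Nr2f2, near the 12.9% of all genes, and none was past 2-fold. Of 14 Sertoli genes 5 were called lower in germ cells, among them Sox9 (-1.31 ± 0.21) and Gatm (-4.91 ± 0.25), and 1 higher, Dmrt1 (1.17 ± 0.21). Among all genes 12.9% were called lower and 17.1% higher. Amh, the hormone that defines Sertoli cells, was at 6.04 ± 0.29 in germ and 5.92 ± 0.16 in supporting cells. Of 7 erythroid genes Hbb-y, an embryonic globin, was called lower (-2.01 ± 0.74, limma adjusted p = 0.0317), a count near the share of all genes. For Hbb-y the supporting arrays had 9.37, 6.42 and 10.26 and the germ arrays 7.25, 5.91 and 6.88. The call was lost without any 1 of 4 of the 6 arrays (germ replicates 2 and 3, supporting replicates 1 and 3). It was also lost with all 36 arrays (limma adjusted p = 0.0857) and with robust variance estimation (limma adjusted p = 0.172).

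The 15 genes with the largest germ excess were led by Stk31, a germ cell kinase with a Tudor domain. It had log2 values of 11.40, 11.06 and 11.31 in germ cells and of 5.10, 4.98 and 4.57 in supporting cells (6.37 ± 0.23, limma adjusted p = 1.84e-27). After Stk31, Ddx4, Hormad1 and Mael came the testis-expressed gene Tex13b (5.72 ± 0.23), the testis cytochrome c gene Cyct (5.70 ± 0.25), Bub1, Dazl, Smc1b, Xlr (5.35 ± 0.32), Dppa5a, the synaptonemal gene Syce1 (5.24 ± 0.23), 1700013H16Rik (5.22 ± 0.25), the condensin gene Ncapg (5.18 ± 0.27) and the tumour antigen gene Trap1a (5.14 ± 0.22). Thus 4 of the 15 were named by the meiotic and piRNA lists, and Tex13b, Xlr, 1700013H16Rik and Trap1a lie on the X chromosome.

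The 15 genes with the largest supporting excess were led by Cpe, the prohormone-processing carboxypeptidase E. Its log2 values were 5.65, 5.32 and 5.36 in germ cells and 11.02, 10.90 and 10.67 in supporting cells (-5.42 ± 0.24). Next came the reductase gene Akr1cl (-5.38 ± 0.24), Kitl, the antisense transcript Wt1os (-5.27 ± 0.23), the annexin gene Anxa2 (-5.22 ± 0.25), the glutathione transferase gene Mgst1 (-5.16 ± 0.26), the imprinted gene Peg10 (-5.14 ± 0.27) and the repressor gene Trps1 (-5.14 ± 0.40). They were followed by Lrrn1 (-5.09 ± 0.26), the myosin light chain gene Myl9 (-5.003 ± 0.30), Gatm, an enzyme of creatine synthesis, Fst, the repressor gene Bhlhe41 (-4.78 ± 0.23), and the X-linked genes Armcx3 (-4.68 ± 0.24) and Smarca1 (-4.65 ± 0.27). Wt1os is annotated opposite Wt1, and whether its probe set reads that strand alone was not tested.

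The largest stage difference belonged to Taf7l, a TFIID subunit of germ cells, at 6.36 ± 0.42. The means differed between stages on both sides, with germ means of 6.34 ± 0.51 at TS13 and 10.88 ± 0.58 at TS34 and supporting means of 10.02 ± 0.04 and 8.20 ± 0.24. For Pnliprp2 (4.96 ± 0.41), 2210407C18Rik (3.83 ± 0.36) and Sprr2d (3.79 ± 0.36) the means differed mainly on the supporting side, where they were 12.08 ± 0.15, 8.32 ± 0.22 and 10.95 ± 0.27 at TS13, and at TS34 6.59 ± 0.14, 4.79 ± 0.20 and 6.78 ± 0.23. The other 6 of the 10 were Stra8, Meioc, Sycp2, Tex12, Sycp1 and Meiob.

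Among the 10 most negative stage differences, 8 belonged to genes whose supporting mean was higher at TS34 than at TS13, and Tdgf1 and Gtsf1l were the exceptions. For Ldb2, a LIM domain binding factor, the supporting mean was 7.37 ± 0.19 at TS13 and 10.69 ± 0.36 at TS34 (-3.92 ± 0.42). Gstm6 (-3.61 ± 0.47), Pld5 (-3.24 ± 0.32), the reductase gene Akr1c14 (-3.24 ± 0.27) and the thrombospondin gene Thbs2 (-3.18 ± 0.27) also had higher supporting means at TS34. On the germ side, Tdgf1, a Nodal co-receptor, had germ means of 10.30 ± 0.49 at TS13 and 6.27 ± 0.23 at TS34 (-3.73 ± 0.36), and Gtsf1l had 9.60 ± 0.18 and 6.14 ± 0.36 (-3.31 ± 0.34). The probe set named for the microRNA hairpin Mir18 (-3.57 ± 0.42), Slc35f2 (-3.22 ± 0.43) and Hbb-y (-3.87 ± 1.04) completed the 10. Their means differed on both sides. The germ means at TS13 and TS34 were 8.73 and 6.27 for Mir18, 9.82 and 8.26 for Slc35f2 and 9.49 and 6.68 for Hbb-y. The supporting means were 5.09 and 6.22, 6.36 and 8.02, and 7.62 and 8.69 in the same order. The call of Hbb-y was lost with all 36 arrays, with robust variance estimation and without supporting XX TS34 replicate 3.

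In the sex difference, the largest value belonged to AU015836, an X-linked gene, at 8.83 ± 0.39. Its order was reversed between the sexes, with 10.00 ± 0.28 in germ and 5.83 ± 0.17 in supporting cells in XX, and 6.66 ± 0.71 and 11.31 ± 0.25 in XY. Fgf13 (5.10 ± 0.36), the testosterone-making enzyme gene Hsd17b3 (5.02 ± 0.29), Mybl1 (4.69 ± 0.34), the desmosome gene Dsp (4.67 ± 0.28), Fam111a (4.65 ± 0.49), Trank1 (4.58 ± 0.37) and Cstdc1 (4.54 ± 0.39) followed, with Stra8 and Meioc. Among the Sertoli genes Amh had 3.77 ± 0.30 and Sox9 2.02 ± 0.30, and 13 of 14 members of that list were positive. A positive sex difference was called for 6.93% of all genes. The XY supporting cells came from the Sox9 line and the XX ones from the Sry-EGFP line, so sex and line cannot be told apart.

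The most negative sex differences were those of Mgst2 (-5.65 ± 0.47), Xist (-5.46 ± 0.42), Fst, Fgfr2 (-4.68 ± 0.32), Gng13, the zinc finger gene Bnc2 (-4.52 ± 0.34), the Y-linked gene Uba1y (-4.48 ± 0.28), the peptidase gene Anpep (-4.14 ± 0.40), the collagen gene Col12a1 (-4.09 ± 0.34) and Cdkn1b. For Mgst2 and Bnc2 the XY germ cells were high, at 10.44 ± 0.35 and 10.58 ± 0.23. For Fgfr2, Anpep and Col12a1 the XY supporting cells were low, at 6.62 ± 0.12, 6.74 ± 0.24 and 6.05 ± 0.17, against 9.87 ± 0.05, 10.63 ± 0.38 and 10.18 ± 0.18 in XX. Ifitm3 had a sex difference of -3.89 ± 0.35, with an XY supporting mean of 7.18 ± 0.27.

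Xist, the long RNA by which an X chromosome is silenced, had log2 values of 7.09, 6.86 and 6.78 in XX germ cells and of 11.09, 11.26 and 11.38 in XX supporting cells. The arrays of the groups were well apart (-4.33 ± 0.30, limma adjusted p = 1.8e-17). At TS34, XY germ cells read 6.25 ± 0.34 and XY supporting cells 5.12 ± 0.22. Germ cells reactivate their second X chromosome in fetal life, as background. Over 612 X-linked genes the median difference was 0.06, against 0.04 for 16979 autosomal genes. After quantile normalization the medians were -0.001 and -0.017. Single X-linked genes were spread more widely. Of the 612, 65 (10.6%) were past 2-fold higher in germ cells and 40 (6.54%) past 2-fold lower, where no autosome exceeded 4.81% and 5.14%. The share of X-linked genes with a difference over 1 was 16.7% at XX TS34, 14.5% at XX TS13 and 11.3% at XY TS34, against 7.85%, 10.7% and 6.99% of autosomal genes. The share with a difference under -1 was 11.3%, 11.6% and 14.1% of X-linked genes in the same order, against 6.66%, 5.34% and 6.52% of autosomal genes. These shares are descriptions, with no test.

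**Figure D5:**
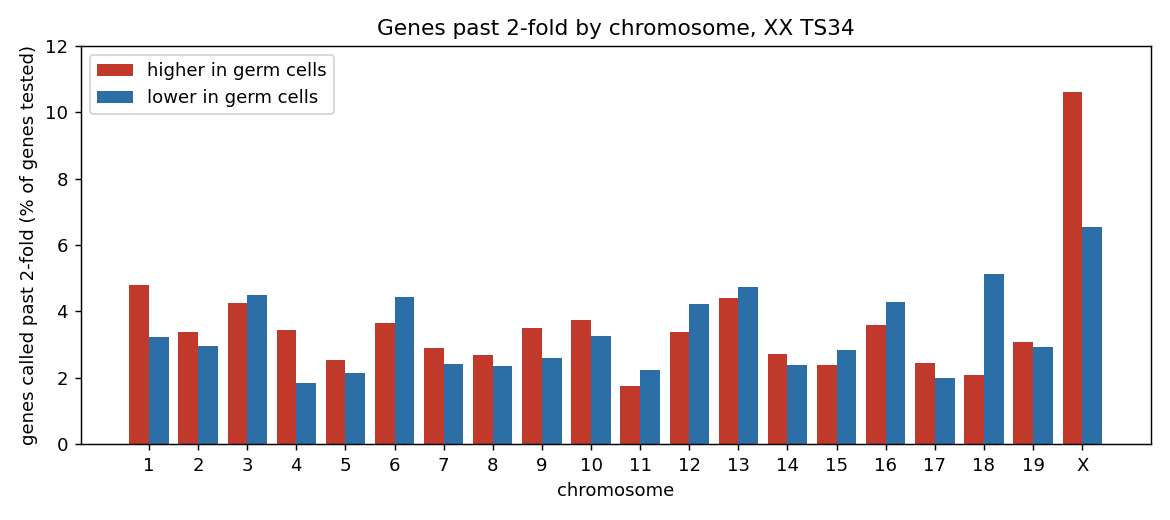
Percent of the tested genes of each chromosome (horizontal axis) called past 2-fold higher or lower in germ cells at XX TS34. The X chromosome has 10.6% higher and 6.54% lower, and no autosome exceeds 4.81% and 5.14%.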

How the data were processed

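The platform was the Affymetrix Mouse Gene 1.0 ST array, hybridised with RNA of sorted cells. The deposited values are log2 expression per probe set, made by the authors with RMA, per the submitters' processing notes; which program, version and probe set definition they used was not found in the labels. The deposited array medians differ, so quantile normalization was tried as an alternative. Of 35557 probe sets, 21789 had 1 gene symbol in the platform annotation, 1621 several and 12147 none, and 21698 symbols were updated through Entrez identifiers to RefSeq (GRCm38.p6). For the 999 genes with several probe sets the one with the highest mean was kept. Genes above the 25th percentile of the array on at least 3 arrays were tested (17615 of 19938).

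Group means over 35 arrays were fitted with limma 3.58.1 in R 4.3.3, with eBayes, treat and Benjamini-Hochberg adjustment over all genes tested. The 3 comparisons were germ minus supporting cells at XX TS34, its stage difference and its sex difference, which share the XX TS34 arrays. The fit was tested on simulated data. Samples were grouped by their titles. Alternatives were quantile normalization, median centring, all 36 arrays, only the arrays compared, other filters on dim genes, the dimmest probe set, robust variance estimation, a replicate block and leaving out each array.

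Named genes were the markers of the sort, the 15 largest differences in each direction, the 10 largest stage and sex differences in each direction, and members of gene lists. The lists, genes and comparisons were chosen with earlier results of these data known. List members without a named probe set or below the filter, such as Meiosin, Syce3 and Bmpr1b, were not tested. Promoters were matched by symbol to RefSeq (GRCm38.p6).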

Additional observations from a re-analysis of the deposited data

Results flagged for a closer look

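The log2 difference between germ and supporting cells was not the same at XX TS34 as at XX TS13 for 670 genes with a positive and 1108 with a negative stage difference, each called by limma's interaction test. Among the named genes, the larger positive stage differences were those of Taf7l (6.36), Pnliprp2 (4.96), Stra8 (4.85), Meioc (4.72), Sycp2 (3.84), 2210407C18Rik (3.83), Tex12 (3.81) and Sprr2d (3.79). Smaller positive values were called for Sycp1 (3.77), Meiob (3.72), Dmc1 (2.98), Idi1 (2.95), Prdm9 (2.91), B2m (2.67), Crabp2 (2.25) and Hormad1 (1.12). The larger negative stage differences were those of Ldb2 (-3.92), Hbb-y (-3.87), Tdgf1 (-3.73), Gstm6 (-3.61), Mir18 (-3.57), Gtsf1l (-3.31), Pld5 (-3.24), Akr1c14 (-3.24) and Slc35f2 (-3.22). Smaller negative values were called for Thbs2 (-3.18), Egr2 (-3.13), Aldh1a1 (-2.61), Aldh1a2 (-2.35), Cdk6 (-2.14), Lgr5 (-2.04), Nanos3 (-1.99), Nanog (-1.88) and Pou5f1 (-1.52).

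Between the sexes at TS34, the difference was called unequal for 1220 genes with a positive and 1023 with a negative value, where the mouse line of the supporting cells also differed. Among the named genes, the larger positive sex differences were those of AU015836 (8.83), Fgf13 (5.10), Hsd17b3 (5.02), Mybl1 (4.69), Dsp (4.67), Fam111a (4.65), Trank1 (4.58) and Cstdc1 (4.54). Smaller positive values were called for Stra8 (4.42), Meioc (4.41), Amh (3.77), Mki67 (3.55), Top2a (3.44), Bub1 (3.35), Dmc1 (3.27) and Sox9 (2.02). The larger negative sex differences were those of Mgst2 (-5.65), Xist (-5.46), Fst (-5.17), Fgfr2 (-4.68), Gng13 (-4.63), Bnc2 (-4.52), Uba1y (-4.48), Anpep (-4.14) and Col12a1 (-4.09). Smaller negative values were called for Cdkn1b (-3.98), Ifitm3 (-3.89), Nanos2 (-3.84), Lhx9 (-3.71), Dhrs3 (-3.22), Bmp2 (-3.21), Emx2 (-2.72), Rspo1 (-2.66), Aldh1a2 (-2.46) and Kitl (-1.20). The value of Top2a turned to -0.117 with its dimmest probe set (limma adjusted p = 0.931).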

How the results depend on the processing

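The stage comparison depended most on the processing. Its 670 positive calls were 1009 after quantile normalization, and its 1108 negative calls were 682 with all 36 arrays and 701 without germ XX TS34 replicate 3. The cause was not tested. The sex counts, 1220 positive and 1023 negative, were 1658 and 1168 after quantile normalization and 953 and 696 with all 36 arrays. With median centring they were 1728 and 1036. The sex difference of Top2a reversed to -0.117 (limma adjusted p = 0.931) with the dimmest probe set of the gene. Leaving out each array in turn gave 2425 to 2984 genes higher and 1781 to 2547 lower in germ cells, 509 to 584 and 445 to 585 past 2-fold, and a median difference of -0.075 to 0.13. The markers ranged from 4.154 to 4.824 for Pou5f1, 5.757 to 6.622 for Ddx4, 5.17 to 5.722 for Dazl, 4.822 to 5.051 for Stra8, -3.884 to -3.645 for Wt1, -2.897 to -2.567 for Gata4, -5.43 to -5.082 for Kitl and -4.951 to -4.639 for Fst. Stage counts ranged from 526 to 644 positive and 701 to 1526 negative (median -0.209 to 0.012), and sex counts from 949 to 1258 positive and 735 to 1515 negative (median -0.186 to 0.013). Among values of named genes under all alternatives, 2585 of the direct comparison kept direction and stayed called or stayed uncalled, and 21 lost the call. A further 24 uncalled values changed sign and 3 gained a call. For the stage difference 778 kept both, 15 lost the call and 5 uncalled values changed sign. For the sex difference 785 kept both, 9 uncalled values changed sign and 2 gained a call. There, Kitl with all 36 arrays and Top2a with its dimmest probe set lost the call.

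Same-numbered germ and supporting arrays deviated from their group means with correlations of 0.186, 0.108 and -0.044, against -0.212 to 0.157 for arrays of different number. Whether same-numbered arrays shared a pool or day cannot be told from these values, and the main fit did not pair them. With a replicate block the direct counts were 3044 higher and 2305 lower, and 606 and 558 past 2-fold, the stage counts 664 and 1134, and the sex counts 1252 and 1056. The number of arrays limits the precision. In simulated data with the same groups, the direct comparison called 7 of 67 genes with a log2 change of 0.5, 46 of 67 with 1 and 65 of 66 with 2. Only these genes were changed there, whereas 30.1% of genes were called in the data. The adjustment was therefore stricter in the simulation, and these counts are not detection rates of the reported comparison.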
